A study of Mus musculus with 3 samples.

Results

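Transcripts of fibroblast growth factor (FGF) ligands, their receptors and klotho were followed in 3 kinds of cultured mouse heart cell. The set held 10 genes of the 18245 listed in the deposited table, namely the ligands Fgf23, Fgf7, Fgf2, Fgf10 and Fgf18, the receptors Fgfr1, Fgfr2, Fgfr3 and Fgfrl1, and the co-receptor gene Kl. Members were picked by gene symbol, and Fgf23 and Fgf7 were picked because their level was high in cardiosphere-derived cells (CDC). The CDC levels of these 2 genes are therefore a description and were not tested. CDC were grown from ventricle epicardium of C57BL/6 mice aged 6 weeks, passed through floating cardiospheres in a medium that contained FGF2 protein, epidermal growth factor and cardiotrophin-1, and then expanded in serum medium to passage 3. CDC-EpiC was an epithelial clone, picked with a cylinder from CDC cultures kept for 2 weeks with SB-431542, which blocks signalling by TGF-beta type I receptors, at 10 µM. Primary epicardial cells (pEpiC) were released from C57BL/6 hearts aged 6 to 8 weeks with collagenase and trypsin, and were grown in another serum medium to passage 3. Each kind had 3 libraries of poly(A)-selected RNA. The labels do not say whether these came from separate animals or cultures, the study's methods speak of fewer biological replicates than there are columns, and the CDC-EpiC libraries represent 1 clone, so p-values measure only the spread between these libraries.

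FGF proteins signal through receptor tyrosine kinases. Most ligands, among them FGF2, FGF7, FGF10 and FGF18, are held near the cell by heparan sulfate and act locally. FGF23 is instead a hormone, made mainly by osteoblasts and osteocytes, which lowers phosphate reabsorption in the kidney and needs klotho beside FGFR1 to signal well. Mesenchymal cells typically make FGF7 and FGF10, which act on the epithelial splice form of FGFR2. Epicardial FGF signals are known to promote growth of the developing heart muscle.

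The regions before the transcription starts of Fgf23, Fgf7 and Fgf10 are shown because these 3 ligands differed most between the kinds. Each sequence holds the 250 bases before the RefSeq start on GRCm38.p6, on the plus strand and 5′ to 3′, with CpG dinucleotides in capitals. The windows lie at chr6:127072652-127072901 for Fgf23, chr2:126034408-126034657 for Fgf7 and chr13:118714449-118714698 for Fgf10.
Fgf23: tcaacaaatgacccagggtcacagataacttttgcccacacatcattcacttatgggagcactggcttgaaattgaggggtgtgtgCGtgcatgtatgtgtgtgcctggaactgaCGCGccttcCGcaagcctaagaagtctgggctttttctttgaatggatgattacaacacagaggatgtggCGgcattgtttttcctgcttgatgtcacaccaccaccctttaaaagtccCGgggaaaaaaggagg
Fgf7: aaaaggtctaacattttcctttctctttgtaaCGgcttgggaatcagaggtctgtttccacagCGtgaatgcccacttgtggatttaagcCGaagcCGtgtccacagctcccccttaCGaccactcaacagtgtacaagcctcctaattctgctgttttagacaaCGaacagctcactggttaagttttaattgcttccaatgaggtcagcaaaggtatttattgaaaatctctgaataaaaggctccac
Fgf10: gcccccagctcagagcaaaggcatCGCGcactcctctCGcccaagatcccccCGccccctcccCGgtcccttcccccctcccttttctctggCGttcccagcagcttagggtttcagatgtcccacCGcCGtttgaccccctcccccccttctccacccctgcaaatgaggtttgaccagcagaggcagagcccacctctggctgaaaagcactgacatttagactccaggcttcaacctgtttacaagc
The Fgf23 window held 6 CpG and 48.4% G or C, and the Fgf7 window held 6 CpG and 43.6%. In Fgf10 there were 8 CpG and 61.2% G or C. The median over 32851 promoters was 6 CpG and 52.4%, and 59.7% of promoters held at most 8 CpG, so none of these windows was rich in CpG. The Fgf18 window, by comparison, held 37 CpG and 77.2% G or C. Short motifs were searched on both strands. The core promoter motif TATAAA was found in 12.4% of all promoters, the Sp1 motif GGGCGG in 32.7%, the AP-1 motif TGACTCA in 4.46% and the palindromic E-box motif CACGTG in 6.02%. None of these matched in the Fgf23 or Fgf7 window, and the Fgf10 window held the Sp1 motif once, on the minus strand 199 bases before the start. These matches describe the letters alone. Of the 10 members, 9 had a promoter in the table.

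Fgf23 lies on chromosome 6 (127072902 to 127082296, plus strand, GRCm38.p6). Its expected counts, the reads assigned to a gene by estimation, were 2335, 2403 and 2849 in the CDC libraries. The CDC-EpiC libraries held 652, 755 and 694, and the pEpiC libraries held 4, 1 and 2. All CDC values lay above all clone values, and the pEpiC libraries were close to empty of this transcript. In CPM, counts per 1000000 counts after TMM scaling over all 9 libraries, the means were 115 ± 11.9 in CDC, 31.3 ± 2.76 in CDC-EpiC and 0.101 ± 0.066 in pEpiC (SD, n = 3). The level in pEpiC was 1.13e+03-fold lower than in CDC (counting interval 550 to 2.82e+03), given as a description because Fgf23 was selected on its CDC level. This fold rests on the 4, 1 and 2 counts of pEpiC, and the fitted log2 change was -10.11 with all libraries and -10.71 without pEpiC library 1. The level in the clone was 3.69-fold lower than in CDC (3.51 to 3.87). Between the kinds that the selection did not name, the CDC-EpiC level stood above that of pEpiC by a count ratio of 308 (149 to 766), and the fitted log2 change of 8.19 became 8.78 without pEpiC library 1. In that pair Fgf23 passed the filter on low counts through the clone alone and so had to differ, and no p is given. These intervals cover counting error at 95% and no other error.

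The cells of bone that usually make FGF23 were looked for with their markers. Over the 9 libraries Dmp1 held at most 2 counts, Mepe at most 1 and Sp7 at most 3.11, and Ibsp was not listed in the table. Sost held 4 to 10 counts in the clone libraries and at most 1 in any other library. Phex was low in all kinds, at 1.92 to 8.8 counts per library. Runx2, an early osteoblast factor that other mesenchymal cells also express, held 859.14, 986.99 and 837.82 counts in CDC against 309 to 443.95 in the other libraries. Alpl, alkaline phosphatase, was highest in the clone (762, 800 and 752 counts) and lower in CDC (223, 196 and 233) and pEpiC (40, 36 and 27). Bglap and Bglap2, the osteocalcin genes, were low in all kinds, with means of 0.366 and 0.652 CPM in CDC, 0 and 0.0745 in the clone and 0.101 and 0.277 in pEpiC, where 3 counts per library correspond to about 0.133. Col1a1 and Spp1, which fibroblasts and macrophages also express, set most of the summed level of the 11 listed bone genes, 4.66e+03 to 5.86e+03 CPM in CDC, 1.55e+03 to 1.94e+03 in the clone and 1.08e+04 to 1.19e+04 in pEpiC.

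Fgf7, keratinocyte growth factor, lies on chromosome 2 (126034658 to 126091185, plus strand). It held 2261.63, 2208 and 2543 counts in the CDC libraries. The clone held 206, 172 and 168 counts, and pEpiC held 1559.1, 1465 and 1522. The order of the kinds thus differed from that of Fgf23: the clone and not pEpiC was lowest, and no kinds overlapped. The mean levels were 107 ± 7.73 CPM in CDC, 8.12 ± 0.876 in CDC-EpiC and 66 ± 1.96 in pEpiC (SD, n = 3). Against CDC, where Fgf7 was chosen by its level, the level was 13.1-fold lower in the clone (counting interval 12 to 14.3) and 1.61-fold lower in pEpiC (1.56 to 1.68). Fgf7 was lower in CDC-EpiC than in pEpiC by a fitted log2 change of -3.02 (SE 0.0782) with, by the quasi-likelihood test of edgeR, a Benjamini-Hochberg adjusted p of 4.7e-10. The whole Fgf7 span lies within Fam227b on the opposite strand, which held 0 to 2.83 counts per library.

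Fgf10, the other ligand of the epithelial FGFR2 form and a known epicardial and mesenchymal signal, lies on chromosome 13 (118714699 to 118792573, plus strand). It held 432.94, 455.46 and 422.95 counts in pEpiC. The CDC libraries held 6.83, 6.22 and 4.03 counts, and the clone held 1.01, 1.02 and 2.06. The pEpiC libraries stood far above all others, at 19 ± 0.69 CPM against 0.259 ± 0.0718 in CDC and 0.0594 ± 0.0253 in CDC-EpiC (SD, n = 3). The level in pEpiC was higher than in CDC by a count ratio of 73.7 (counting interval 45.8 to 127). Against the clone the ratio was 320 (125 to 1.18e+03). Fgf10 passed the filter on low counts only through its pEpiC level and so had to differ, and no p is given. Between the clone and CDC it did not pass, and the clone stood at 0.23 of the CDC level (0.0564 to 0.706).

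Fgf18, a ligand known for its action on cartilage and bone through FGFR3, lies on chromosome 11 (33116970 to 33147400, minus strand). Its counts were 134, 125 and 153 in CDC. They were 399, 517 and 511 in CDC-EpiC, and 244, 239 and 220 in pEpiC. The clone was highest, CDC lowest, and no kinds overlapped. In CPM the means were 6.26 ± 0.632, 21.3 ± 3.15 and 10.2 ± 0.505, in that order (SD, n = 3). Fgf18 rose in the clone against CDC by a log2 change of 1.76 (SE 0.125, adjusted p = 7.3e-09, edgeR) and against pEpiC by 1.05 (SE 0.112, adjusted p = 1e-05). It was also higher in pEpiC than in CDC, by 0.66 (SE 0.11, adjusted p = 0.00028, edgeR).

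Fgf2, the basic FGF that many cultured cells make and that was supplied as protein to the cardiospheres, lies on chromosome 3 (37348477 to 37410106, plus strand). It held 40, 33 and 31 counts in CDC. The clone held 36, 44 and 55, and pEpiC held 155, 169 and 150. The clone and CDC overlapped, while pEpiC stood above both, at 6.88 ± 0.422 CPM against 1.58 ± 0.233 in CDC and 2.01 ± 0.423 in CDC-EpiC (SD, n = 3). The log2 change was 2.07 (SE 0.157, adjusted p = 9.3e-07, edgeR) for pEpiC vs CDC and -1.78 (SE 0.169, adjusted p = 4.5e-06) for CDC-EpiC vs pEpiC. For the clone vs CDC it was 0.34 (SE 0.225, adjusted p = 0.19, edgeR), which did not pass. Fgf2 shares 5125 bases with Nudt6 on the opposite strand, whose counts also rose, from 108, 102 and 91 in CDC to 210, 190.79 and 187 in the clone and 408.25, 347 and 384 in pEpiC. The strand setting of the counting is not given in the sources used here, so reads of Fgf2 and Nudt6 cannot be told apart in the shared stretch.

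**Figure D1:**
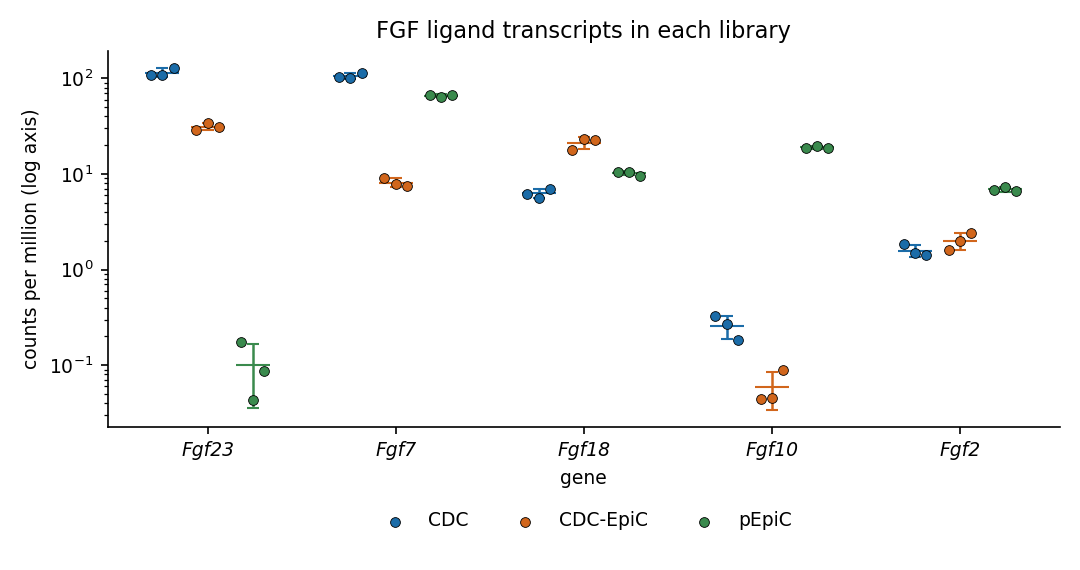
CPM on a log axis for the 5 ligand genes, with 1 point per library, the mean as a dash and the SD as a bar, 3 libraries per kind. Fgf23 fell to 0.0436 to 0.173 CPM in the pEpiC libraries, Fgf10 was above 1 CPM in pEpiC alone, and Fgf7 had its lowest level in CDC-EpiC.

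Set side by side per transcript length, in TPM, transcripts per 1000000 transcripts, Fgf23 and Fgf7 were the leading ligands of the set in CDC, at 75.3 ± 10.7 and 70.2 ± 7.85 (SD, n = 3). Within each CDC library Fgf23 was the higher (69.26 against 67.5, 69 against 64.12 and 87.6 against 79.08). Differences between ligands were not tested. Fgf18 followed at 7.21 ± 1 and Fgf2 at 3.64 ± 0.512, and Fgf10 was at 0.1 ± 0.0265. In the clone Fgf18 at 25.7 ± 3.82 TPM stood above Fgf23 at 21.4 ± 1.61 within each library (21.27 against 19.69, 27.68 against 22.89 and 28.08 against 21.6). Fgf7 at 5.62 ± 0.583 and Fgf2 at 5.1 ± 1.24 changed order between the clone libraries. In pEpiC the order was Fgf7 at 59.6 ± 0.876 TPM, Fgf2 at 22.3 ± 1.67, Fgf18 at 16.1 ± 0.84, Fgf10 at 10 ± 0.511 and Fgf23 at 0.0933 ± 0.0611. Each kind thus had its own order of ligand means in TPM. The lead of Fgf23 and Fgf7 in CDC is a description, since both were chosen by their CDC level. The order also depends on length scaling. In CPM the pEpiC order was Fgf7 at 66, Fgf10 at 19, Fgf18 at 10.2, Fgf2 at 6.88 and Fgf23 at 0.101. The Fgf2 values per length rest on a transcript of 748 bases, as the deposited FPKM imply, against 1538 to 4605 bases for the other ligands.

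The genes with the profile most like each of Fgf23, Fgf7 and Fgf10 were found by the root mean square difference of log2(CPM + 1), centred on each gene's own mean, over the 9 libraries and among 12498 genes. Ly6k was nearest to Fgf23 (0.36), at 99.8 ± 2.71 CPM in CDC, 31.2 ± 1.96 in the clone and 0.653 ± 0.0454 in pEpiC (SD, n = 3). Foxa2 (0.847) and Anxa8 (0.912) came next and were far less alike. Foxa2, an endoderm transcription factor, was at 40.8 ± 1.59 CPM in CDC, 44.2 ± 2.81 in the clone and 0.145 ± 0.0508 in pEpiC. The nearest profiles to Fgf7 were those of Pde3b, a phosphodiesterase (0.0898), Inhba, an activin subunit (0.14), and Map6 (0.155). Limch1 (0.0725), Trim66 (0.099) and Pcdh11x (0.142) were nearest to Fgf10, with 17.8 ± 0.732, 19.5 ± 0.808 and 14.3 ± 0.544 CPM in pEpiC and at most 0.258 in the mean of either other kind.

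Fgfr1, the receptor most used by mesenchymal cells, lies on chromosome 8 (25518759 to 25575718, plus strand) and had the highest TPM of the 4 receptor genes in every kind, at 58.5 ± 5.09 in CDC, 40.6 ± 0.852 in the clone and 205 ± 5.59 in pEpiC (SD, n = 3). It held 3307, 3176 and 3562 counts in CDC. The clone held 2217, 2343 and 2266, and pEpiC held 8916, 9055 and 8913. The kinds did not overlap, with pEpiC highest and the clone lowest. The means were 153 ± 8.6 CPM in CDC, 102 ± 4.29 in CDC-EpiC and 390 ± 3.96 in pEpiC (SD, n = 3). Fgfr1 was higher in pEpiC than in CDC by a log2 change of 1.31 (SE 0.0611, adjusted p = 3.3e-08, edgeR). In the clone it was lower than in CDC by a log2 change of -0.59 (SE 0.0752, adjusted p = 4.8e-06), and lower than in pEpiC by -1.95 (SE 0.05, adjusted p = 4.5e-10, edgeR).

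Fgfr2, the receptor whose epithelial form binds FGF7 and FGF10, lies on chromosome 7 (130162451 to 130266808, minus strand). It held 796, 779 and 852 counts in CDC, 772, 839 and 739 in the clone, and 808.97, 847 and 875 in pEpiC. All kinds overlapped, at 36.9 ± 1.62, 35 ± 2.77 and 36.8 ± 1.62 CPM (SD, n = 3). The log2 changes were -0.05 (SE 0.0618, adjusted p = 0.48, edgeR) for pEpiC vs CDC, -0.08 (SE 0.0806, adjusted p = 0.38) for the clone vs CDC and -0.07 (SE 0.068, adjusted p = 0.33) for the clone vs pEpiC. None passed, and the sign and call of the comparisons with pEpiC depended on scaling. On log2(TPM + 1) the pEpiC vs CDC change was 0.42 (adjusted p = 0.00125, limma), at the median of all genes on that scale, 0.414, and with a correction for transcript length it was -0.44 (adjusted p = 3.56e-05, edgeR). Gene-level counts do not separate the epithelial and mesenchymal splice forms of Fgfr1 to Fgfr3. Of the splicing regulators of these forms, Esrp1 held at most 1 count per library, and Esrp2 held 319, 313 and 294 in CDC, 244, 232 and 238 in the clone and 78, 82 and 68 in pEpiC, a log2 change of -2.13 (SE 0.113, adjusted p = 7.9e-08, edgeR) for pEpiC vs CDC.

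Fgfr3, a receptor best known as a brake on bone growth, lies on chromosome 5 (33721724 to 33737068, plus strand) and had the lowest TPM of these 3 kinase receptors, at most 1.23 ± 0.116 in any kind. It held 68.03, 70.07 and 54.5 counts in CDC. The clone held 45.07, 60.05 and 60, and pEpiC held 12, 12 and 19.04. The clone overlapped CDC, and pEpiC lay below both. The means were 2.92 ± 0.411 CPM in CDC, 2.46 ± 0.406 in the clone and 0.625 ± 0.179 in pEpiC (SD, n = 3). In pEpiC Fgfr3 was lower than in CDC by a log2 change of -2.26 (SE 0.253, adjusted p = 1.6e-05, edgeR), and the clone was above pEpiC by 1.96 (SE 0.259, adjusted p = 5.2e-05). The clone vs CDC change of -0.25 (SE 0.194, adjusted p = 0.26, edgeR) did not pass. Fgfr4, the remaining kinase receptor, held 1 to 5 counts per library.

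Fgfrl1, which binds FGF but lacks the kinase domain, also lies on chromosome 5 (108694229 to 108706950, plus strand). It held 707, 673 and 694 counts in CDC, 577, 622 and 661 in the clone, and 792, 859 and 781 in pEpiC. The kinds did not overlap in CPM, but lay close, at 31.5 ± 1.04, 27.7 ± 1.95 and 35.3 ± 1.82 (SD, n = 3). The clone was lower than pEpiC by a log2 change of -0.35 (SE 0.0674, adjusted p = 0.00071, edgeR). Against CDC the clone was lower by -0.19 (SE 0.0802, adjusted p = 0.043), a call that was lost without CDC library 1 (0.137), without CDC-EpiC library 1 (0.135) and in DESeq2 (0.0711), with adjusted p-values of 0.0297 to 0.394 over all alternatives. The pEpiC vs CDC change of 0.12 (SE 0.0631, adjusted p = 0.11, edgeR) did not pass, and its adjusted p ranged from 6.35e-05 to 0.361 over the alternatives.

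**Figure D2:**
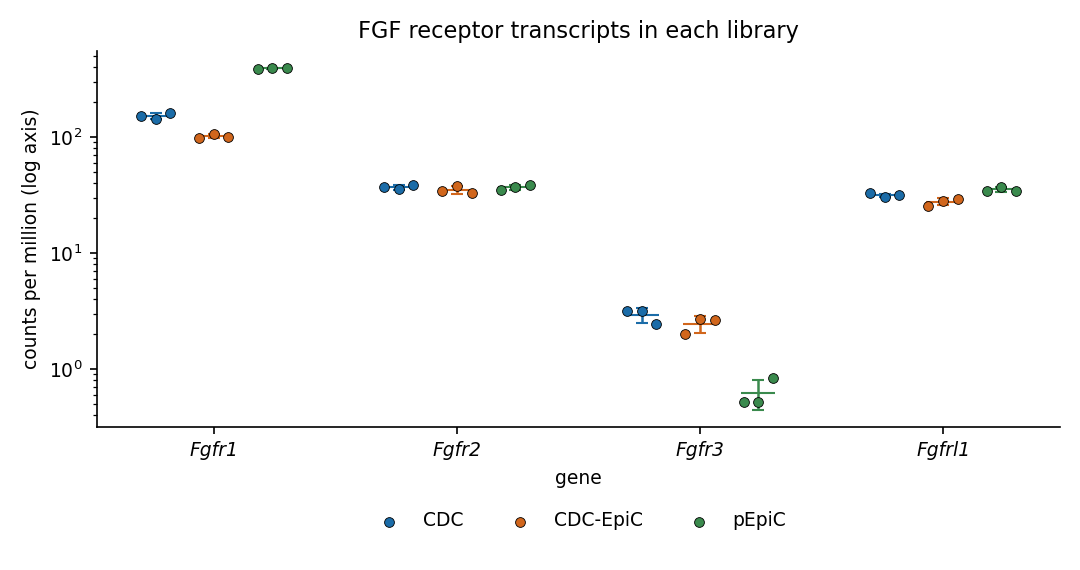
CPM on a log axis for the 4 receptor genes, with 1 point per library, the mean as a dash and the SD as a bar, 3 libraries per kind. Fgfr1 was highest in pEpiC (390 ± 3.96), Fgfr3 lowest there (0.625 ± 0.179), and the Fgfr2 points of all kinds lie at one height.

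Kl, which encodes the co-receptor that FGF23 needs in the kidney, lies on chromosome 5 (150952607 to 150993817, plus strand). It held 3.01, 1.72 and 0 counts in CDC. The clone held 0, 1.05 and 2.35, and pEpiC held 0, 3.59 and 0. Kl was therefore at the detection limit in all kinds, where 3 counts per library correspond to 0.133 CPM in CDC and pEpiC and 0.135 in the clone, and it was not tested. Of the related genes, Klb, the co-receptor of FGF21, held at most 3 counts per library. Lctl, a klotho-like gene named here after its values were seen, held 106.85, 83.75 and 92.96 counts in the clone and at most 3.47 in any other library, a ratio of 69.5 (counting interval 26.9 to 257) against CDC. It passed the filter through the clone alone, and no p is given.

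The 3 kinase receptors were compared within each library as shares of their summed TPM, which is scaled to transcript length. Fgfr1 made up 81.2%, 80.6% and 81.3% of it in CDC. In the clone the share was 75.5%, 74.1% and 75.6%, and in pEpiC 92.4%, 92.4% and 91.9%. The kinds did not overlap: the Fgfr1 share was highest in pEpiC (92.2 ± 0.308%), lower in CDC (81.1 ± 0.371%) and lowest in the clone (75.1 ± 0.812%, SD, n = 3). The differences of the means were 11.2 percentage points for pEpiC vs CDC, -5.98 for the clone vs CDC and -17.1 for the clone vs pEpiC. Each had a two-sided exact permutation p of 0.1 (0.1 adjusted over the 3 pairs), the smallest that 3 against 3 libraries allow. Fgfr2 held the rest almost alone, with 22.1% to 23.7% in the clone, 17% to 17.4% in CDC and 7.45% to 7.93% in pEpiC, and the sum of the 3 receptors was 216.2 to 228.3 TPM in pEpiC against 52.45 to 78.7 in the others.

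**Figure D3:**
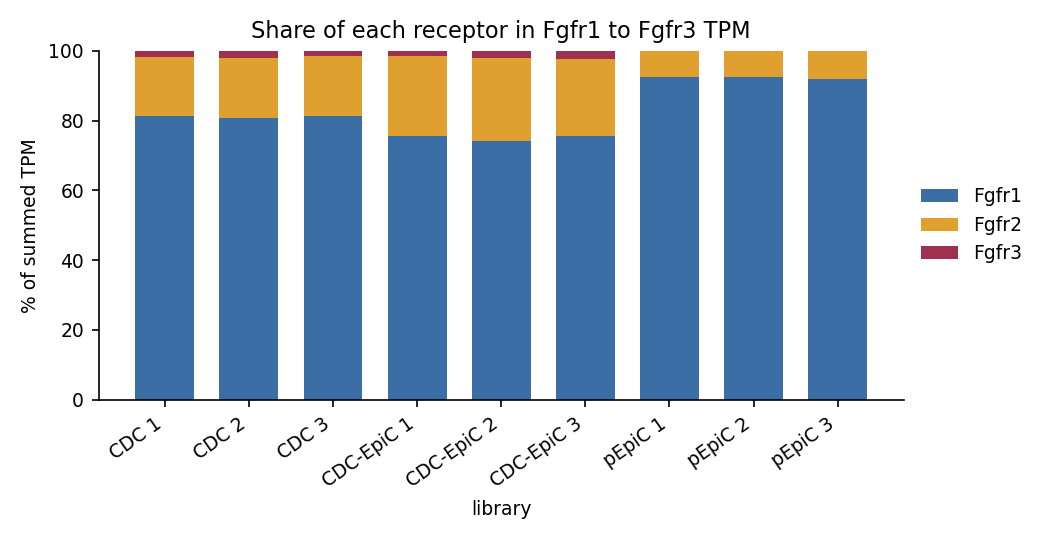
Stacked bars, 1 per library, give the percent of the summed Fgfr1, Fgfr2 and Fgfr3 TPM held by each receptor. The Fgfr1 part spans 91.9% to 92.4% in pEpiC, 80.6% to 81.3% in CDC and 74.1% to 75.6% in CDC-EpiC.

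The members were then counted against all genes. For pEpiC vs CDC, 5 of the 8 members other than Fgf23 and Fgf7 passed an adjusted p of 0.05 in edgeR (7 were tested), against 78.3% of all 13526 genes tested. Of these 4 were higher in pEpiC (39.8% of all genes tested) and 1 was lower (38.5%). For CDC-EpiC vs CDC, 3 of the 8 passed (6 tested), against 68.8% of 12976 genes, with 1 higher in the clone (34.2% of all) and 2 lower (34.6%). For CDC-EpiC vs pEpiC, 8 of the 10 passed (9 tested), against 81.9% of 13547 genes, with 3 higher in the clone (40.3% of all) and 5 lower (41.5%). Libraries of the kinds did not overlap for 81.5%, 72.1% and 84.0% of the genes tested, in the same order. The counts include Fgf10 against pEpiC and Fgf23 in CDC-EpiC vs pEpiC, which passed the filter through 1 kind alone and so support nothing. Without them, 4 of 6 members passed in pEpiC vs CDC and 6 of 7 in CDC-EpiC vs pEpiC. Most genes differed between these cultures, and read against these shares the member counts single out no member group. The comparisons share libraries, so their counts are not independent. Among all called genes the higher share was 50.8%, 49.7% and 49.3% on counts. On log2(TPM + 1) it was 74.5%, 56.1% and 32.9%, a scale on which the median change over genes was 0.414, 0.0652 and -0.327. Apart from Fgfr2, no member changed sign on that scale.

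**Figure D4:**
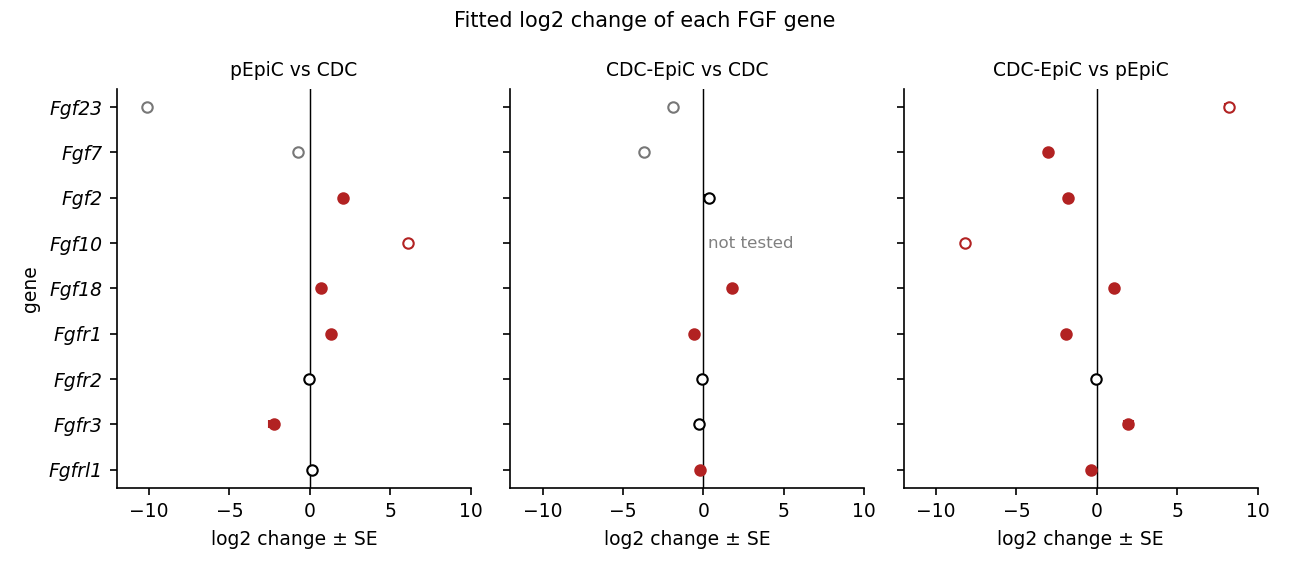
Fitted log2 change with its SE for 9 members in each comparison, the first-named kind over the second. Filled points passed an adjusted p of 0.05, open black points did not, open grey points are Fgf23 and Fgf7 against CDC, which chose them, and open red points passed the filter on low counts through 1 kind alone. Fgf10 was not tested for CDC-EpiC vs CDC, Kl was tested nowhere, and the widest changes were those of Fgf23 (-10.11 and 8.19) and Fgf10 (6.13 and -8.20).

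Other genes of FGF signalling were taken from 8 lists of 110 genes, of which 107 were in the table. In pEpiC vs CDC, 79 of 86 tested genes passed in edgeR, 50 higher and 29 lower, with a median log2 change of 0.355 against 0.0196 over all genes. In CDC-EpiC vs CDC, 69 of 82 passed, 29 higher and 40 lower (median -0.148 against 0.00267), and in CDC-EpiC vs pEpiC 77 of 86, 25 higher and 52 lower (median -0.676 against -0.0182). On log2(TPM + 1) the split was 63 higher and 15 lower, 32 and 38, and 20 and 61. With a correction for transcript length it was 39 and 33, 30 and 40, and 29 and 45, with medians of 0.0288, -0.129 and -0.282. In these comparisons 8, 9 and 11 of the tested genes met the minimum of 10 counts in every library of 1 kind alone, and all of them passed. Among the rest 71 of 78, 60 of 73 and 66 of 75 passed. The share of all genes that passed was 78.3%, 68.8% and 81.9%, and the counts of the short lists are read as no finding against it.

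Of the other ligands, 6 of 7 tested were higher in pEpiC than in CDC and none was lower (median 2.51, or 2.39 with genes of at most 3 counts per library in a kind set to that floor), but 5 of the 6, among them Fgf14 and Fgf21, met the count minimum in pEpiC alone. Fgf14, an intracellular FGF that acts on sodium channels, held 438.19, 443.49 and 350.22 counts in pEpiC against 11.17, 5.07 and 15.31 in CDC and at most 1 in the clone. The pEpiC libraries stood apart, by a count ratio of 37.9 (counting interval 26.6 to 56.1) against CDC. Fgf8, named after its values were seen, was instead highest in the clone, with 60, 43 and 53 counts there and at most 8 elsewhere (clone vs CDC ratio 17, counting interval 8.71 to 37.8), and passed the filter through the clone alone. Fgf21, a hormone of the same subfamily as FGF23, held 29, 28 and 37 counts in pEpiC and at most 10 elsewhere. Of the other receptors and co-receptors, 5 of 5 tested passed in pEpiC vs CDC (4 higher, 1 lower, median 0.798), 6 of 6 in the clone vs CDC (3 higher, 3 lower, median -0.0417) and 6 of 6 in the clone vs pEpiC (2 higher, 4 lower, median -0.844). Over all genes tested 78.3%, 68.8% and 81.9% passed, in that order. The counts include genes that met the count minimum in 1 kind alone: Flrt1 in pEpiC vs CDC, Flrt1 and Lctl in the clone vs CDC, and Lctl in the clone vs pEpiC. Flrt1, a membrane protein that binds FGF receptors, held 4.03, 9.05 and 10.09 counts in CDC and 144, 230.16 and 153.16 in the clone, a ratio of 22.4 (counting interval 14.8 to 35.7) with the minimum met in the clone alone. Cdh2, N-cadherin, which interacts with FGFR1, was highest in CDC and lower in the clone by -1.61 (SE 0.0899, adjusted p = 4.3e-10) and in pEpiC by -1.11 (SE 0.0848, adjusted p = 1e-06, edgeR). Of 6 carrier and splicing genes tested, 5 passed in each comparison, with 1 higher and 4 lower in pEpiC vs CDC (median -0.6), 3 higher and 2 lower in the clone vs CDC (median 0.185), and 3 higher and 2 lower in the clone vs pEpiC (median 0.421). On log2(TPM + 1) these 6 genes split 3 and 3 in pEpiC vs CDC (median -0.0859) and 3 and 3 in the clone vs pEpiC (median 0.0429).

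Heparan sulfate carries the local FGFs and helps them engage their receptors. Of 12 core proteins tested, 9 were higher and 3 lower in pEpiC than in CDC (median 0.73), and 3 were higher and 7 lower in the clone than in CDC (median -0.773). Over all genes tested 39.8% were higher and 38.5% lower in pEpiC than in CDC. For the clone vs CDC these shares were 34.2% and 34.6%. The 7 lower include Gpc3, which met the count minimum in CDC alone and so supports nothing. With a correction for transcript length the pEpiC vs CDC split was 7 higher and 4 lower (median 0.714). Hspg2 (0.301 to -0.555) and Agrn (0.422 to -0.127) turned in sign there. Gpc3, a membrane-anchored glypican, held 1091, 988 and 878 counts in pEpiC, 14, 27 and 24 in CDC and 1, 0 and 0 in the clone. Sdc4, a transmembrane syndecan, ran the other way between these kinds, with 13406.3, 17847.1 and 15170.6 counts in the clone against 3658.04, 3294.01 and 3168 in pEpiC (log2 change 2.23, SE 0.108, adjusted p = 3e-08, edgeR). The enzymes that build and trim the chains were split, 12 higher and 8 lower of 22 in pEpiC vs CDC (median 0.245, and -0.0569 with a correction for transcript length) and 7 higher and 13 lower in the clone vs CDC (median -0.44). These counts include genes that met the count minimum in 1 kind alone and so support nothing. They are Hs3st3b1 in pEpiC vs CDC, and Hs3st3a1 and Hs3st3b1 in the clone vs CDC. Hs6st2, a 6-O-sulfotransferase, fell in the clone vs CDC by 3.41 on the log2 scale (SE 0.0972, adjusted p = 2.1e-13, edgeR), from 2656.79, 2628.02 and 3069.13 counts to 239.84, 276.95 and 287.34. Sulf1, which removes 6-O-sulfate outside the cell, was highest in pEpiC, by 1.78 against CDC (SE 0.0784, adjusted p = 2.3e-08, edgeR).

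Of the docking and transducer genes, 8 of 10 passed in pEpiC vs CDC (6 higher, 2 lower, median 0.267), 6 in the clone vs CDC (4 higher, 2 lower, median 0.0277) and 8 in the clone vs pEpiC (3 higher, 5 lower, median -0.185), all with changes under 1 on the log2 scale. The shares of all genes tested that passed were 78.3%, 68.8% and 81.9%, in that order, and these counts are read as no finding. With a correction for transcript length the split in pEpiC vs CDC was 2 higher and 3 lower, and the medians turned in sign against pEpiC (-0.0737 for pEpiC vs CDC and 0.0212 for the clone vs pEpiC), while on log2(TPM + 1) it was 9 higher and 0 lower. Genes induced by FGF and ERK signalling, which limit or carry it, passed in both directions. All 14 passed in pEpiC vs CDC, 7 higher and 7 lower (median 0.0109), 11 passed in the clone vs CDC, 7 higher and 4 lower (median 0.297), and 13 in the clone vs pEpiC, 7 higher and 6 lower (median 0.116). They stand against the same shares of all genes, 78.3%, 68.8% and 81.9%. The medians against pEpiC also turned in sign, to -0.243 for pEpiC vs CDC with the length correction and -0.253 for the clone vs pEpiC on log2(TPM + 1). Spry2, an inhibitor of receptor tyrosine kinase signalling, held 780.99, 797 and 953 counts in CDC and 2262.97, 2623 and 2521 in the clone (log2 change 1.51, SE 0.0921, adjusted p = 1.2e-09, edgeR). Spry4 was also higher in the clone, by 1.70 against pEpiC (SE 0.0812, adjusted p = 2.8e-08), while Spry1, named after its values were seen, was lower there than in CDC by a log2 change of -1.10 (SE 0.0897, adjusted p = 3.5e-08, edgeR). Fosl1, an AP-1 subunit, was highest in CDC, at 1253.89, 997.58 and 1048.09 counts, against 145, 272.42 and 135.28 in the clone and 64.81, 72.39 and 71.99 in pEpiC. Etv1, an ETS factor downstream of FGF, was higher in pEpiC than in CDC by 3.08 (SE 0.184, adjusted p = 1.7e-07, edgeR). The family did not move as a block in any comparison.

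Genes that process FGF23 or act on its hormonal axis were read beside Fgf23 itself. GALNT3 glycosylates FGF23 and protects it from cleavage, FAM20C phosphorylates it and favours cleavage, and furin-like proteases cut it. Galnt3 held at most 1 count in any CDC or clone library and 20, 10 and 16 in pEpiC. Fam20c held 1994, 2019 and 2159 counts in CDC, 665, 782 and 728 in the clone and 1974, 1833 and 1880 in pEpiC, a clone vs CDC log2 change of -1.54 (SE 0.0825, adjusted p = 2.6e-10, edgeR). Furin was present in all kinds, at 1825 to 3543 counts per library. Enpp1, which makes pyrophosphate and whose loss is known to raise FGF23, held 929, 950 and 884 counts in pEpiC, 32, 26 and 39 in CDC and 2, 1 and 1 in the clone. Vdr, the vitamin D receptor, was higher in the clone than in CDC by 0.98 (SE 0.11, adjusted p = 1.3e-06) and than in pEpiC by 1.63 (SE 0.108, adjusted p = 3e-07, edgeR), while its target Cyp24a1 held at most 2 counts. Over the 18 genes, 9 of 10 tested passed in pEpiC vs CDC (5 higher, 4 lower, median 0.174, and -0.0775 with the length correction, or 8 higher and 1 lower with a median of 0.504 on log2(TPM + 1)), and 9 of 9 in each comparison of the clone, with 8 lower than in CDC and 7 lower than in pEpiC (median -1.07 in both). In pEpiC vs CDC 1 of the higher genes, Galnt3, met the count minimum in pEpiC alone and so supports nothing. In each comparison of the clone 3 of the lower genes, Enpp1, Pcsk5 and Pth1r, met the count minimum in 1 kind alone and so support nothing. Over all genes tested, 34.6% were lower in the clone than in CDC and 41.5% lower than in pEpiC. In pEpiC vs CDC 39.8% of all were higher and 38.5% lower.

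**Figure D5:**
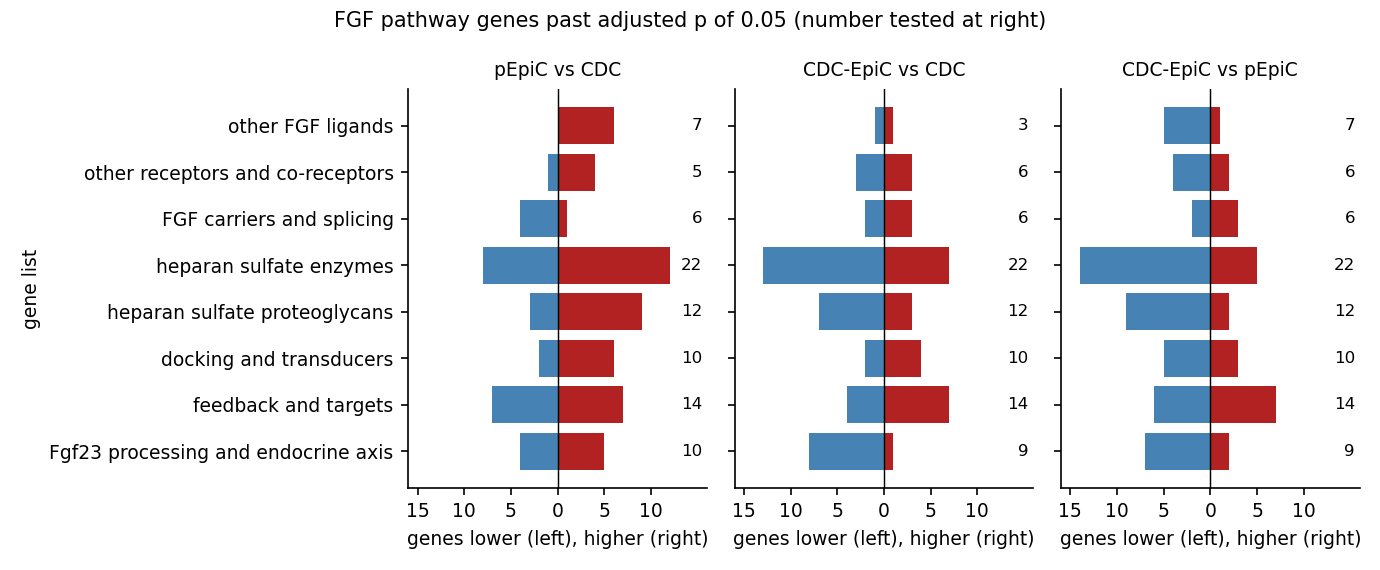
Genes of 8 FGF pathway lists past an adjusted p of 0.05 in each comparison, higher in the first-named kind to the right of 0 and lower to the left, with the number tested at the right edge. The heparan sulfate core proteins have 9 higher and 3 lower in pEpiC vs CDC, or 7 and 4 with a correction for transcript length. The Fgf23 processing list has 8 lower and 1 higher in CDC-EpiC vs CDC, and 3 of these 8 met the count minimum in 1 kind alone.

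Markers of the labelled cells and of other cell types moved with the kinds. Total expected counts were 22008833 to 22756045 per library. Each list of markers is given as its summed level. Macrophage markers were 303 to 845 CPM in pEpiC, highest in pEpiC library 1, against 72.5 to 74.3 in CDC and 30 to 32.9 in the clone, and all 10 genes had a count in each pEpiC library. The CDC sum was set mostly by Lyz2 (37.7), Csf1r (19.6) and Cd14 (13.9), and the clone sum by Cd68 (13.3), Csf1r (9.38) and Cd14 (7.66). Ptprc, Adgre1, Tyrobp, C1qa, C1qb and C1qc were at most 0.198 CPM in the mean of either kind. In pEpiC vs CDC 9 of the 10 were higher (39.8% of all genes tested), and Cd14 did not pass. Of the higher, Ptprc, Adgre1, Tyrobp, C1qa, C1qb and C1qc met the count minimum in pEpiC alone and so support nothing. Leaving out pEpiC library 1 changed no call on a member in edgeR. Fibroblast markers were 3.46e+04 to 3.74e+04 CPM in pEpiC, 1.38e+04 to 1.72e+04 in CDC and 8.71e+03 to 1.01e+04 in the clone, in the same order of kinds as Fgfr1. Epicardial and mesothelial markers were 562 to 597 CPM in pEpiC, 683 to 712 in CDC and 5.79e+03 to 6.75e+03 in the clone, a sum set mostly by Upk3b (means of 69.4, 229 and 2.65e+03 CPM in pEpiC, CDC and the clone), Upk1b (53.3, 158 and 1.16e+03) and Lrrn4 (200, 102 and 2.12e+03). In pEpiC vs CDC 6 of the 11 were higher and 5 lower (median log2 change 0.925), with Wt1, Aldh1a2, Krt8, Krt18 and Tcf21 among the higher and Upk3b, Upk1b, Msln, Tbx18 and Krt19 the lower. Krt8 and Krt18 held at most 9 and 7 counts per CDC library, so they met the count minimum in pEpiC alone and support nothing. Over all genes tested 39.8% were higher and 38.5% lower in that comparison. Tcf21, an epicardial and fibroblast factor, was highest in pEpiC, at 102 ± 6.8 CPM against 27.9 ± 2.68 in the clone and 12.3 ± 0.196 in CDC (SD, n = 3). Endothelial markers were 90.8 to 108 CPM in pEpiC, 41.1 to 55.6 in CDC and 9.29 to 12 in the clone, set mostly by Flt1 (73.4, 47.7 and 8.69 CPM) and, in pEpiC, Tek (17.6), while Pecam1, Cdh5, Emcn, Cldn5 and Tie1 were at most 0.437 in any mean. Those of heart muscle were 138 to 155, 9.64 to 28.6 and 11.6 to 13.6, of which Tnnt2 made up 145, 9.58 and 8.76 in the means, while the pEpiC and CDC means of Myh6 were 0.0144 and 5.81, of Actc1 0.0436 and 1.76, of Myl2 0.0144 and 0.808 and of Tnni3 0.798 and 1.69. Genes used to type the surface of CDC were 873 to 988 CPM in CDC and 492 to 594 in the other libraries. This sum was set mostly by Eng (means of 429, 386 and 296 CPM in CDC, the clone and pEpiC), Thy1 (291, 99 and 122) and Cd44 (164, 27.8 and 66.8). The list also holds Kit, Pecam1, Ptprc and Kdr, for whose proteins the study reports CDC as negative. Of 7 tested in pEpiC vs CDC, 4 were higher, among them Ly6a (62.4 against 34.4 CPM), and 3 lower (median log2 change 0.814). The higher include Ptprc and Kdr, which met the minimum in every library of pEpiC alone and so support nothing. Myh6, a heart muscle gene, held 190.67, 189.59 and 0 counts in the CDC libraries, and without CDC libraries 1 and 2, which leaves 1 CDC library that is assumed to vary like the other kind, no call on a member changed except that of Fgfrl1 (clone vs CDC, adjusted p = 0.158, edgeR). The part of these other cells in the FGF values was not tested, and in bulk cultures fewer cells that express a gene and less RNA of it per cell cannot be told apart.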

How the data were processed

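Poly(A)-selected RNA of CDC, CDC-EpiC and pEpiC was sequenced as paired reads on a BGISEQ-500. The submitters' processing notes name HISAT2 2.0.4, Bowtie2 2.2.5, RSEM 1.2.12, DESeq2 1.4.5 and mm10, without roles. The authors deposited 1 table of 18245 genes with expected counts (30.3% not whole), FPKM and TPM, both scaled to transcript length, for 3 libraries of each kind. The authors' 9 mean columns were not used. Library columns were taken as replicates, since RNA is described as extracted from separate samples, although the study's methods speak of fewer biological replicates than columns, and their counts differed beyond sampling (chi-square per degree of freedom 4.89 to 23).

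Expected counts were rounded. For each pair of kinds, edgeR 4.0.16 (R 4.3.3) fitted the 6 libraries alone after filterByExpr (minimum count 10, minimum total 15) and TMM, with glmQLFit, glmQLFTest and Benjamini-Hochberg adjustment over all genes tested, at 0.05. Members that passed the filter numbered 9 in pEpiC vs CDC, 8 in CDC-EpiC vs CDC and 9 in CDC-EpiC vs pEpiC. Count ratios use TMM-scaled totals with exact binomial 95% intervals, which cover counting error only. Limma 3.58.1 was used on log2(TPM + 1), log2(FPKM + 1) and log2(FPKM + 0.1), and DESeq2 1.42.0 was an alternative. The transcript length was implied by count and FPKM.

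The members and gene lists were chosen with earlier results of these data known. All members were named. From each list and comparison, the called gene with the largest rise and the largest fall, without overlap and at or above 5 CPM in 1 kind, was eligible to be named, and any other was named after its values were seen. Positions, starts and promoters are from RefSeq on GRCm38.p6, and strands from GENCODE M21. Alternatives are listed with the closing observations. Leaving out CDC libraries 1 and 2 together was added after seeing the data.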

Additional observations from a re-analysis of the deposited data

How the results depend on the processing

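Counts of called genes, members and pathway genes stayed within 1.5 times under every alternative run (DESeq2, RLE normalization, no filter, a minimum of 10 counts per library, all 9 libraries in 1 fit, TPM, FPKM, a length correction, the replicate block, each library left out, and CDC libraries 1 and 2 left out). Of the log2 changes of members, 392 values kept direction and call, 14 values of the untested Fgf23 and Fgf7 changes moved beyond 1 SD, 10 gained and 9 lost a call, and 4 turned in sign, all of Fgfr2. For pEpiC vs CDC, Fgfr2 was 0.42 on log2(TPM + 1), 0.0592 on log2(FPKM + 1) and 0.0668 on log2(FPKM + 0.1), and for CDC-EpiC vs pEpiC it was 0.38 with the length correction. The fitted change rose with transcript length by 0.447 per doubling of length in pEpiC vs CDC, 0.0165 in the clone vs CDC and -0.442 in the clone vs pEpiC, and the cause was not tested. The 9 lost calls were all of Fgfrl1 in CDC-EpiC vs CDC. Gained calls were those of Fgfrl1 and Fgfr2 against pEpiC or CDC and of Fgf2 in CDC-EpiC vs CDC on TPM and FPKM scales (adjusted p = 0.033, 0.0385 and 0.0407, limma, range 0.033 to 0.604 over all alternatives). Fgf10 was tested for CDC-EpiC vs CDC only with no filter (adjusted p = 0.0284) and in the fit of all 9 libraries (0.00518). Without length scaling, the Fgfr1 share differed by 11.96 percentage points for pEpiC vs CDC and -18.17 for the clone vs pEpiC. Library numbers are given by the column names and not by the labels, and deviations of same-numbered libraries correlated at -0.091 to 0.138, so they share only a number. With the replicate block the members called were 5, 2 and 8, the lost call being Fgfrl1 (adjusted p = 0.0593).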
